A study of Rhamphochromis sp. 'chilingali' and Astatotilapia calliptera with 50 samples.

Results

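Presented here are 100 genes whose species difference in group mean turned round between 2 stages. Their mean was lower in Rhamphochromis embryos than in Astatotilapia embryos at the 4-somite stage (4ss) and higher in them at 15ss. They were chosen by these measured values. Group means of normalized counts (reads on a gene divided by 1 size factor per embryo) were taken as log2(mean + 1), genes whose mean reached at least 20 in some group were kept, and the genes were ranked by the smaller of the deficit at 4ss and the excess at 15ss. The table holds 28001 genes, of which 19316 could be ranked. Among these 4171 had a difference below 0 at 4ss and above 0 at 15ss, and the 100 with the highest rank are the members. The values at 4ss and 15ss are therefore given as a description without a test, and the tests compared embryos of other stages. The 4ss and 15ss embryos did enter the estimate of spread that the tests share.

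The samples were 50 single whole embryos of 2 Lake Malawi cichlids, labelled wild-type and tank-reared and dissected from the yolk before RNA extraction. Rhamphochromis sp. "chilingali" (RC) gave 26 embryos, 3 at each of 10, 15, 18, 20, 22, 26, 30 and 37ss and 2 at 4ss. Astatotilapia calliptera "Mbaka" (AC) gave 24 embryos, 3 at each of 4, 10, 15, 18, 20, 22, 27 and 30ss, and the RC embryos at 26ss were set against the AC embryos at 27ss (comparison at 26ss below). All embryos of a species came from 1 egg clutch, so a difference between species and a difference between 2 clutches cannot be told apart, and p-values measure the spread among embryos of a clutch. In whole embryos, fewer cells of a type and less RNA per cell cannot be told apart either.

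Somites form one pair after another from the presomitic mesoderm while the tail bud extends the axis. Early in this period the brain is being divided into regions by signals from local organisers, and later on muscle, nerve, blood and gut tissue mature. RNA of whole embryos follows both processes, with genes of early patterning declining and genes of differentiated tissue rising as somites are added. RC makes more somites in all than AC, so an RC embryo with a given number of somites has completed a smaller part of somitogenesis than an AC embryo with the same number. For this reason the species were compared at equal somite number and also at pairs of stages matched by the completed part of somitogenesis.

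Between 17619762 and 27454591 reads per embryo fell on genes. The mean rank correlation of an embryo with the others of its group over all genes tested was lowest in AC 4ss embryo 3 (0.964), RC 10ss embryo 1 (0.965), RC 10ss embryo 2 (0.965) and AC 10ss embryo 1 (0.968). In all, 13 of the 50 embryos had a higher mean correlation with another stage of their species than with their own. The gap was widest for RC 10ss embryo 1, at 0.977 with the RC 18ss embryos, and for AC 22ss embryo 2, at 0.984 with the AC 27ss embryos and 0.975 with its own group. The 13 include all 3 RC 10ss embryos and RC 15ss embryos 1 and 2, of a stage that chose the genes, which had 0.984 and 0.986 with the RC 20ss embryos and 0.979 and 0.982 with their own group. Some counts are given below also without AC 4ss embryo 3, AC 10ss embryo 1, AC 22ss embryo 2 and RC 10ss embryo 1, 4 embryos picked after the data were seen. Of these, AC 22ss embryo 2 and RC 10ss embryo 1 are among the 13, and AC 4ss embryo 3 and AC 10ss embryo 1 are not. The other embryos of the 13 stayed in that fit. RC 10ss embryo 2 was kept there and is left out together with the other embryos numbered RC replicate 2. The table holds Ensembl identifiers only. A symbol was found for 1 member, fgf8a, and Gene Ontology terms for 15 members including fgf8a. The terms come from the enriched terms that the study listed for genes it had called in these embryos, so they cover a part of the genes and are no independent evidence. Other members are given by identifier. Lists of marker genes for yolk syncytial layer, hatching gland, red blood cells, leukocytes and germ cells matched no identifier and could not be checked.

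At 4ss the median difference of the 100 members, RC minus AC, was -1.33 on the log2(mean + 1) scale, and at 15ss it was 1.24, while the medians over all ranked genes were -0.0024 and -0.0031. The mean of at least 20 could come from any group, so some members had very few counts at 4ss. ENSACLG00000007935, ENSACLG00000013111 and ENSACLG00000027862 had AC means of 0.87, 2.43 and 2.89 there, against RC means of 0, 0.44 and 0.88. The number of such members was not computed. Every RC embryo lay below every AC embryo at 4ss for 45 members, against 24.4% of the ranked genes. Every RC embryo lay above every AC embryo at 15ss for 57 members, against 20.1%. Both held for 26 members, against 2.47%. These counts restate the choice of the genes and nothing is read from them. The rank ended without a step. The members at ranks 98 (ENSACLG00000018699), 99 (ENSACLG00000003342) and 100 (ENSACLG00000021669) had a smaller difference of 0.852, 0.851 and 0.849, and the next genes, ENSACLG00000016470, ENSACLG00000001267 and ENSACLG00000020952, which are not members, had 0.848, 0.845 and 0.844. Membership rested on few embryos. The 2 RC embryos at 4ss are numbered 1 and 3. Leaving out RC replicate 1 or 3 thus left 1 RC embryo at that stage, and leaving out RC replicate 2 removed none there. With 1 replicate number of 1 species left out at every stage, 51 to 87 of the 100 genes were chosen again, the fewest without RC replicate 1 or RC replicate 3, and 16 were chosen every time.

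The members did not share 1 time course. When they were grouped by how their levels moved together over the 50 embryos (average linkage on 1 minus Pearson's r, 4 groups, made after the data were seen and given no test as groups), the sets held 36, 28, 7 and 29 genes. They are called rising, falling, mid-course and embryo-variable here, after the course of the set mean and not of each gene. The mean of the rising set was higher at late than at early stages, that of the falling set was lower, and the embryo-variable genes went up and down together between embryos of the same stage. Exceptions were found in the rising set, where 7 of 36 genes had their highest AC group mean at 4ss. In the mid-course set the highest RC group mean fell on 20ss for 5 of 7 genes and on an earlier or a later stage for 1 each. The highest AC group mean of these genes fell on 4ss for 2, on 18ss for 3 and on 20ss and 22ss for 1 each. The falling set declined from 4ss on mainly in AC, where 26 of 28 genes had their highest group mean at 4ss. In RC the highest mean of these genes fell on 4ss for 8, on 10ss for 7 and on 15ss for 12. Values at 4ss and 15ss chose the genes, and the set was named for its fall in AC. These peaks thus partly restate the choice, and no species difference in course is read from them. The map of all members by embryo shows gradients along the stages in the falling and rising sets and columns of high and low embryos in the embryo-variable set. The median pairwise correlation between members was 0.73 in the embryo-variable set, 0.53 in the falling, 0.44 in the rising and 0.37 in the mid-course set. Among the 15 members with a term, 7 fell into the embryo-variable, 5 into the falling, 2 into the rising and 1 into the mid-course set.

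**Figure D1:**
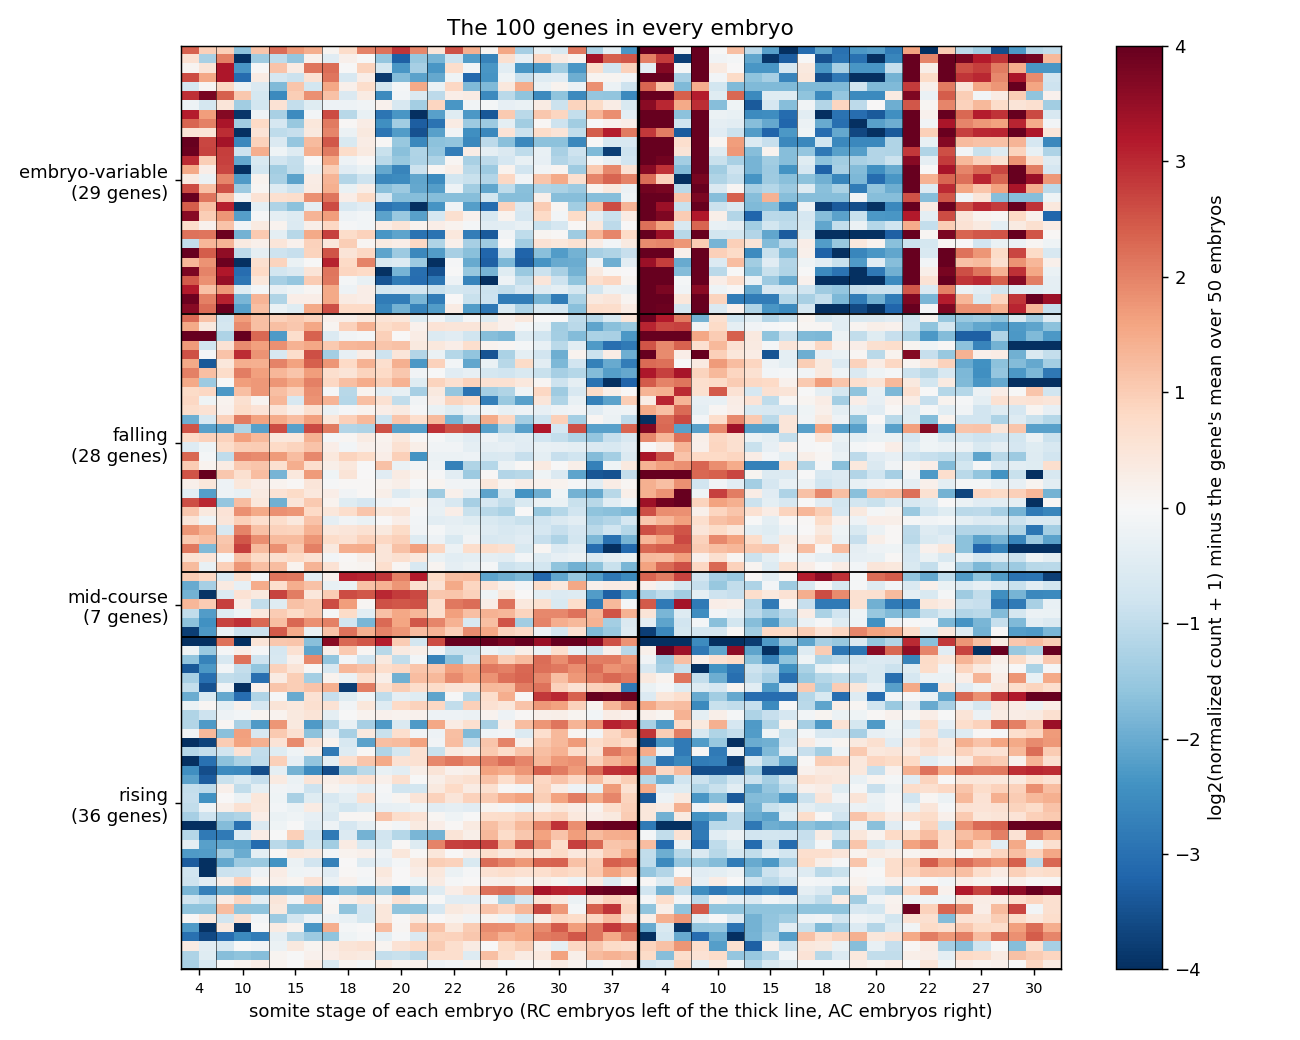
Each row is 1 of the 100 genes and each column 1 of the 50 embryos, RC left of the thick line and AC right, ordered by somite stage, and colour gives log2(normalized count + 1) minus the gene's mean. In the top block of 29 genes single embryos stand out as columns, whereas the blocks of 28 and 36 genes change more gradually along the stages of a species. In RC the decline in the block of 28 genes lies mainly after 15ss.

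Members of the embryo-variable set differed strongly between embryos of 1 group. Of the 29 genes, 2 had every RC embryo below every AC embryo at 4ss, against 24.4% of the ranked genes. With every RC embryo above every AC embryo at 15ss required as well, 0 were left, against 2.47%. The geometric mean of the 29 genes at 4ss was 209.7 and 109.8 normalized counts in RC embryos, against 755, 538 and 26.8 in AC embryos. At 10ss it was 263, 9.61 and 50.6 in RC embryos, against 902, 31.0 and 45.5 in AC embryos. So 2 of 3 AC embryos were high at 4ss and 1 of 3 at 10ss, and the other AC embryos lay below the highest RC embryo of their stage. At 15ss the values were 30.8, 28.1 and 68.5 in RC embryos, against 12.1, 15.4 and 10.5 in AC embryos, and the groups did not overlap. The same held at 18ss, with 142, 44.1 and 55.5 in RC embryos, against 26.6, 6.75 and 7.99 in AC embryos. AC embryos were high again at 22ss, with 12.5, 37.1 and 16.8 in RC embryos, against 671, 36.3 and 380.3 in AC embryos. The highest AC embryo exceeded the lowest 28.2 times at 4ss, 29.1 times at 10ss and 18.5 times at 22ss, and the corresponding RC ratio at 10ss was 27.4. The SD of log2 values within a group, averaged over groups, had a median of 1.32 over the 29 genes, against 0.55 over the falling, 0.60 over the mid-course and 0.59 over the rising set and 0.27 over all genes tested. The set was named for its spread between embryos of a group, so its higher SD restates the name. Each of the 4 embryos picked above was the highest or lowest of its group here. AC 4ss embryo 3 was the low AC embryo at 4ss, AC 10ss embryo 1 the high AC embryo and RC 10ss embryo 1 the high RC embryo at 10ss, and AC 22ss embryo 2 the low AC embryo at 22ss. These embryos were picked after the data were seen and each group held only 3, so nothing is read from this. The part of these embryos in the values of the set was not tested.

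**Figure D2:**
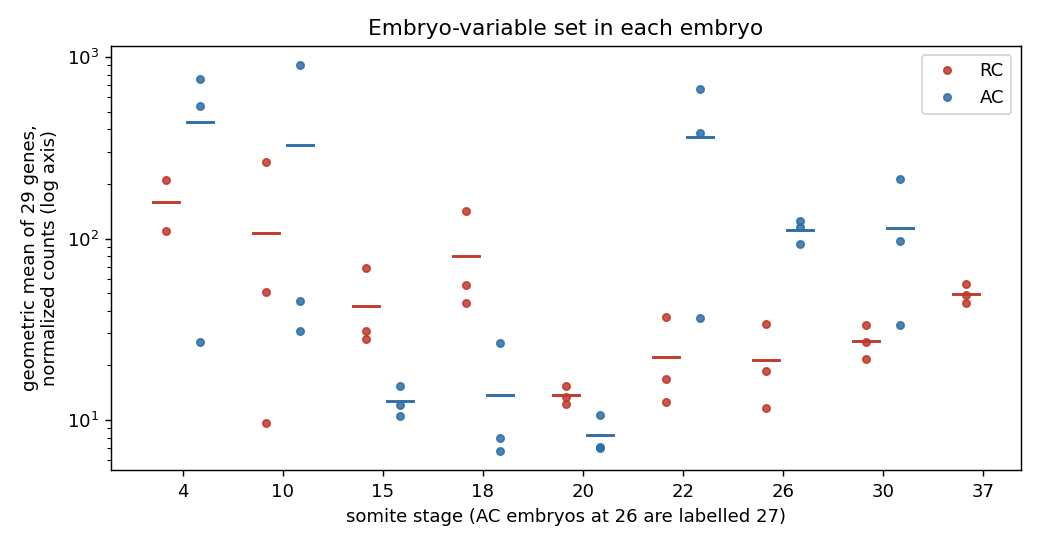
Geometric mean of the 29 embryo-variable genes in each embryo on a log axis, by somite stage, with RC (red) left of AC (blue) and a bar at the mean of the embryos. AC embryos at 4, 10 and 22ss are spread over a factor of 18.5 or more, and at 20ss all 6 embryos lie between 6.98 and 15.4.

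ENSACLG00000025049, which has no annotation here and was picked as an example after its values were seen, showed the pattern at high counts. At 4ss it had 1806 and 1177 normalized counts in RC embryos, against 17514, 10420.4 and 314 in AC embryos. At 15ss it had 132, 113 and 667 in RC embryos, against 285, 119.5 and 81.8 in AC embryos, and its difference there came from 1 RC embryo, as the other 2 lay within the AC range. At 22ss it had 43.4, 287 and 53 in RC embryos, against 15148, 495 and 8174 in AC embryos. All 3 AC embryos were above all 3 RC embryos at 22ss, and the log2 fold change was -5.48 ± 1.59 (SE, adjusted p = 0.016) by limma. The call was not made upon removal of AC replicate 3 or of RC replicate 1 or 3 (adjusted p = 0.053 to 0.11).

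Terms in this set named metabolism, transport and organ formation. ENSACLG00000012932 carries the terms gland development and hepaticobiliary system development. At 4ss it had 1107 and 1092 normalized counts in RC embryos, against 3903, 2597 and 113 in AC embryos, and at 15ss it had 188, 113 and 708 in RC embryos, against 107, 57.1 and 23.4 in AC embryos. At 18ss it had 1643, 408 and 460.4 in RC embryos, against 175, 5.25 and 11.2 in AC embryos, a log2 fold change of 4.83 ± 1.48 (SE, adjusted p = 0.012). At 22ss it had 30.4, 327 and 34.7 in RC embryos, against 6926, 256 and 3340.1 in AC embryos, a log2 fold change of -4.66 ± 1.48 (SE, adjusted p = 0.030). RC was thus higher at the one stage and lower at the other, and at 22ss the lowest AC embryo lay inside the RC range. The call at 18ss was not made upon removal of AC replicate 2 or of RC replicate 1 (adjusted p = 0.085 to 0.11) and with edgeR (adjusted p = 0.055), that at 22ss upon removal of AC replicate 1 or 3 or of RC replicate 1 or 3 (adjusted p = 0.088 to 0.17).

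Both members annotated to lipid catabolic process were lower in RC at 22ss. ENSACLG00000027667 had 23.1, 98.2 and 19.2 normalized counts in RC embryos, against 4639, 208 and 1689.6 in AC embryos, with a log2 fold change of -5.02 ± 1.48 (SE, adjusted p = 0.018). ENSACLG00000009918 had 25.8, 106.3 and 45.7 normalized counts in RC embryos, against 2668, 84.3 and 962 in AC embryos, with a log2 fold change of -3.56 ± 1.17 (SE, adjusted p = 0.037). In each of them 2 of 3 AC embryos were far above the rest. Of the members annotated to transmembrane transport, ENSACLG00000019177 was lower in RC at 22ss, with 0, 17.2 and 3.65 normalized counts in RC embryos, against 548, 16.5 and 314 in AC embryos and a log2 fold change of -5.04 ± 1.40 (SE, adjusted p = 0.012). The other, ENSACLG00000011855, had 127, 314 and 119.6 normalized counts in RC embryos, against 3764, 233 and 2059 in AC embryos, and its difference of -2.85 ± 1.18 (SE, adjusted p = 0.11) did not pass the threshold. Neither the calls of the lipid genes nor that of ENSACLG00000019177 held without AC replicate 1, RC replicate 1 or RC replicate 3, nor did those of ENSACLG00000009918 and ENSACLG00000019177 without AC replicate 3 or that of ENSACLG00000009918 without RC replicate 2.

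Some members of the set departed from this course. ENSACLG00000002381, annotated to the metabolism of purine-containing compounds and other small molecules, was higher in RC at 20ss. It had 105.6, 174 and 90.2 normalized counts in RC embryos, against 3.87, 4.23 and 2.42 in AC embryos, where every RC embryo was above every AC embryo, and the log2 fold change of 4.75 ± 1.24 (SE, adjusted p = 0.0066) passed with any 1 replicate number of a species left out. At 22ss it had 32.3, 139.8 and 63.0 in RC embryos, against 71.6, 0 and 47.5 in AC embryos, and the groups overlapped. ENSACLG00000001736 followed the course of the set, with AC group means of 120.9 at 4ss, 0.71 at 15ss and 51.4 at 22ss. At 30ss it had 0.907, 0 and 1.89 normalized counts in RC embryos, against 49.4, 229 and 72.8 in AC embryos. The log2 fold change there was -5.75 ± 1.35 (SE, adjusted p = 0.0028 by limma) and passed with any 1 replicate number of a species left out. ENSACLG00000001042, annotated to blood vessel development, varied less between embryos. At 4ss it had 1048 and 724 normalized counts in RC embryos, against 2974, 1954 and 425 in AC embryos, and at 15ss it had 709, 439.9 and 758 in RC embryos, against 243, 388 and 319 in AC embryos. It passed in none of the 6 species comparisons, with differences between -0.94 ± 0.58 at 30ss and 1.44 ± 0.58 at 18ss (SE, adjusted p = 0.33 and 0.054 by limma).

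Genes of the falling set were lower in RC at 4ss and higher in RC at 15ss, as the choice required, at levels that declined later. Their geometric mean at 4ss was 192 and 91.4 normalized counts in RC embryos, against 340.0, 364 and 375 in AC embryos, and at 15ss it was 129, 125 and 209 in RC embryos, against 68.2, 48.9 and 69.8 in AC embryos. RC 10ss embryo 1, which resembled 18ss embryos, had 75.2, beside 211 and 159.9 in the other RC embryos at 10ss. At 26ss the set had 47.6, 49.9 and 50.7 in RC embryos, against 36.0, 32.3 and 37.6 in AC 27ss embryos, without overlap.

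fgf8a (ENSACLG00000004676), at rank 93, encodes a secreted fibroblast growth factor that in zebrafish comes from the boundary of midbrain and hindbrain and from the tail bud, among other sources. At 4ss it had 865 and 675 normalized counts in RC embryos, against 1515, 1261 and 1447 in AC embryos, and at 15ss it had 484, 465 and 667 in RC embryos, against 191, 179 and 221 in AC embryos. The groups did not overlap at either stage. Between them, at 10ss, it had 161, 1004 and 568 in RC embryos, against 349.8, 427 and 347 in AC embryos, where 1 RC embryo was below and 2 were above all AC embryos. Later values were 237, 204 and 208 in RC embryos, against 121, 175 and 159 in AC embryos at 22ss, 176, 159.7 and 170.4 in RC embryos, against 112, 111 and 115 in AC embryos at 26ss, and 158, 134 and 158 in RC embryos, against 109, 32.3 and 98.4 in AC embryos at 30ss. Every RC embryo was above every AC embryo at these 3 stages, with log2 fold changes of 0.52 ± 0.37, 0.58 ± 0.37 and 1.08 ± 0.37 (SE, adjusted p = 0.40, 0.36 and 0.046 by limma). Only the last passed, and it rested on 1 AC embryo, since without AC replicate 2 the difference was 0.53 (adjusted p = 0.48). It was not called by edgeR (adjusted p = 0.089) or DESeq2 (adjusted p = 0.058), nor without AC replicate 3 (adjusted p = 0.057) or RC replicate 3 (adjusted p = 0.17).

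At equal parts of somitogenesis the fgf8a differences were -0.30 ± 0.36, -0.31 ± 0.36 and -0.01 ± 0.36 (SE, adjusted p = 0.58, 0.63 and 0.99 by limma) for RC 22, 26 and 30ss against AC 18, 20 and 22ss. In the fourth pair fgf8a had 118, 145 and 115 normalized counts in RC 37ss embryos, against 109, 32.3 and 98.4 in AC 30ss embryos. Every RC embryo was above every AC embryo there, and the difference of 0.83 ± 0.36 (SE, adjusted p = 0.17) did not pass. Between 18ss and 30ss fgf8a fell in both species, with a log2 change of -1.25 ± 0.36 (SE, adjusted p = 0.0097) in RC and -1.91 ± 0.36 (SE, adjusted p = 0.00013) in AC. The RC change did not pass upon removal of RC replicate 3 (adjusted p = 0.079) and the AC change did not upon removal of AC replicate 2 (adjusted p = 0.057), where it was -1.2. Of the 27 genes of a list of Fgf ligands, receptors and targets only 2 could be matched to an identifier. The other, fgf3, a further secreted ligand, was higher in RC at 20ss (0.84 ± 0.29 log2, SE, adjusted p = 0.045 by limma) and passed at none of the other 5 stages.

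In the falling set 2 further members carry the term hindbrain development. At 4ss ENSACLG00000005752 had 2499 and 1412 normalized counts in RC embryos, against 5788, 4072 and 5983 in AC embryos, and at 15ss it had 1520.0, 1331 and 1947 in RC embryos, against 933, 571 and 593 in AC embryos, without overlap at either stage. It was higher in RC at 20, 26 and 30ss, with log2 fold changes of 0.85 ± 0.30, 1.23 ± 0.30 and 1.2 ± 0.30 (SE, adjusted p = 0.048, 0.0038 and 0.0048 by limma). At 20ss it had 1072, 1283 and 549 normalized counts in RC embryos, against 411, 545 and 578 in AC embryos, so that 1 RC embryo lay inside the AC range, and this call was not made upon removal of AC replicate 1, 2 or 3 or of RC replicate 1 or 2 (adjusted p = 0.061 to 0.30). At 26ss it had 371, 353 and 402 in RC embryos, against 176, 111 and 206 in AC 27ss embryos, every RC embryo above every AC embryo. The groups were apart at 30ss too, with 326, 245 and 279 in RC embryos, against 124, 174 and 84.2 in AC embryos, but the call did not hold upon removal of AC replicate 3 (adjusted p = 0.078). Between 18ss and 30ss the gene fell, with a log2 change of -1.81 ± 0.29 in RC and -2.34 ± 0.29 in AC (SE, adjusted p = 1.7e-05 and 2.3e-07). At equal parts of somitogenesis its differences lay between -0.43 ± 0.29 and 0.31 ± 0.29 (SE, adjusted p = 0.36 and 0.67) and none passed.

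At 4ss ENSACLG00000017884 had 459.8 and 413 normalized counts in RC embryos, against 794, 639 and 1357 in AC embryos, and at 15ss it had 405, 320.4 and 432 in RC embryos, against 184, 179.8 and 173 in AC embryos. This gene is annotated to hindbrain development and anterior/posterior pattern specification. At the 6 other stages it passed no test, with differences between 0.02 ± 0.22 at 22ss and 0.50 ± 0.22 at 10ss (SE, adjusted p = 0.98 and 0.11 by limma). ENSACLG00000018699 is annotated to brain development. It had 845 and 783 normalized counts in RC embryos, against 1352, 1318 and 1744 in AC embryos at 4ss, and 887, 986 and 849 in RC embryos, against 311, 433 and 533 in AC embryos at 15ss. At 20ss it had 789, 883 and 749 in RC embryos, against 449.6, 461 and 588 in AC embryos, with no overlap and a log2 fold change of 0.70 ± 0.21 (SE, adjusted p = 0.018), a call that was not made upon removal of AC replicate 1 or 2 or of RC replicate 2 or 3 (adjusted p = 0.053 to 0.083). ENSACLG00000016196, annotated to nucleosome assembly, had low counts. At 4ss it had 22.2 and 10.6 normalized counts in RC embryos, against 15.08, 105.2 and 31.9 in AC embryos, so that 1 AC embryo stood far above the rest. At 26ss it had 0.96, 3.59 and 1.88 in RC embryos, against 11.5, 8.93 and 19.0 in AC 27ss embryos, and was lower in RC, the opposite direction to the other called genes of the set at this stage. Its log2 fold change was -2.19 ± 0.65 (SE, adjusted p = 0.019), and the call was not made upon removal of AC replicate 1 or 3 or of RC replicate 1 or 3 (adjusted p = 0.052 to 0.13).

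Large later differences in the falling set were found in ENSACLG00000007363 and ENSACLG00000010472, which have no annotation in the sources used here. At 4ss ENSACLG00000007363 had 2664 and 466 normalized counts in RC embryos, against 4635, 3122 and 4196 in AC embryos, and at 15ss it had 2909.6, 2159 and 2381 in RC embryos, against 1036, 768 and 1139 in AC embryos. The species were near each other at 22ss, with 1100.5, 975 and 1305 in RC embryos, against 883, 722 and 835 in AC embryos. They then parted, with 902, 863 and 779.7 in RC embryos, against 261, 129.5 and 221 in AC 27ss embryos at 26ss, and 662, 383 and 611 in RC embryos, against 29.1, 40.5 and 18.9 in AC embryos at 30ss. The log2 fold change was 2.11 ± 0.38 (SE, adjusted p = 0.00010) at 26ss and 4.2 ± 0.38 (SE, adjusted p = 1.1e-10) at 30ss. ENSACLG00000010472 had 789.8, 671 and 938 normalized counts in RC embryos, against 410.5, 402 and 263 in AC embryos at 15ss. At 26ss it had 358, 356 and 315 in RC embryos, against 67.3, 45.6 and 55.8 in AC 27ss embryos. At 30ss it had 244, 131 and 180.4 in RC embryos, against 4.85, 3.69 and 0.946 in AC embryos, a log2 fold change of 5.58 ± 0.49 (SE, adjusted p = 8.8e-11). By 37ss RC embryos had 168, 99 and 114 normalized counts of ENSACLG00000007363 and 29.3, 11.5 and 24.5 of ENSACLG00000010472. Set against AC 30ss embryos, RC 37ss embryos were higher by 2.09 ± 0.37 and 2.5 ± 0.50 log2 (SE, adjusted p = 9.8e-05 and 0.00044 by limma). These calls held with any 1 replicate number of a species left out. In the 3 earlier pairs at equal parts of somitogenesis neither gene passed. The differences of ENSACLG00000007363 were 0.06 ± 0.37, -0.47 ± 0.37 and -0.59 ± 0.37 (SE, adjusted p = 0.93, 0.44 and 0.32), and those of ENSACLG00000010472 were -0.45 ± 0.50, -0.27 ± 0.50 and -0.38 ± 0.50 (SE, adjusted p = 0.54, 0.78 and 0.69).

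The mid-course set remained higher in RC after 15ss. The geometric mean of its 7 genes at 4ss was 8.69 and 6.64 normalized counts in RC embryos, against 20.2, 8.11 and 24.8 in AC embryos, and at 20ss it was 94.8, 83.7 and 84.4 in RC embryos, against 26.7, 16.6 and 21.0 in AC embryos. All 7 genes were called higher in RC in at least 1 of the 6 species comparisons. Of all genes tested, 35.0% were called in at least 1 of them in either direction, and the share called higher was not computed. The set was made from levels in these same embryos, so this count is a description. ENSACLG00000010517, without annotation, had 37.6, 49.6 and 42.1 normalized counts in RC embryos, against 14.5, 5.07 and 4.04 in AC embryos at 20ss. At 30ss it had 64.4, 65.0 and 76.5 in RC embryos, against 9.69, 13.8 and 13.2 in AC embryos. It was higher in RC at 20, 22, 26 and 30ss, with log2 fold changes of 2.49 ± 0.53, 2.3 ± 0.53, 2.52 ± 0.53 and 2.40 ± 0.53 (SE, adjusted p = 0.00078, 0.0021, 0.00078 and 0.0013 by limma), and these calls held with any 1 replicate number of a species left out. It was higher in RC in all 4 comparisons at equal parts of somitogenesis as well, between 1.76 ± 0.53 and 3.13 ± 0.53 (SE, adjusted p = 0.012 and 3.4e-05), where the lowest was not made upon removal of AC replicate 2 or of RC replicate 2 or 3 (adjusted p = 0.055 to 0.090) and that at RC 37ss upon removal of RC replicate 2 (adjusted p = 0.10).

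ENSACLG00000008151 of the mid-course set was lower at 10ss than at 4ss, then rose and declined within a few stages. At 4ss it had 213 and 186 normalized counts in RC embryos, against 529, 428 and 685 in AC embryos, and its group means at 10ss were 110.4 in RC and 45.9 in AC. At 15ss it had 462, 447 and 78.3 normalized counts in RC embryos, against 108, 76.4 and 106.3 in AC embryos. At 18ss it had 116, 909.9 and 867 in RC embryos, against 915, 1262 and 792 in AC embryos, so that all AC embryos were high and 1 RC embryo was still low. At 20ss it had 763, 421 and 952 in RC embryos, against 97.7, 493 and 558 in AC embryos, and at 22ss it had 176, 240.0 and 247 in RC embryos, against 33.8, 24.2 and 50.4 in AC embryos. The AC level was lower than the RC level at 22ss without overlap, and the log2 fold change of 2.63 ± 0.61 (SE, adjusted p = 0.0027) held with any 1 replicate number of a species left out. At equal parts of somitogenesis ENSACLG00000008151 went the other way, being lower in RC 22ss than in AC 18ss embryos at -2.14 ± 0.60 (SE, adjusted p = 0.0072) and in RC 26ss than in AC 20ss embryos at -3.48 ± 0.60 (SE, adjusted p = 4.6e-05). The first of these was not made upon removal of AC replicate 2 (adjusted p = 0.068), and the differences in the other 2 pairs did not pass (-0.68 ± 0.60 and 0.67 ± 0.60, SE, adjusted p = 0.51 and 0.65). ENSACLG00000027862, annotated to hemopoiesis, the formation of blood cells, had 53.3, 45.2 and 31.4 normalized counts in RC embryos, against 51.2, 40.6 and 38.8 in AC embryos at 20ss, where the groups overlapped. At 30ss it had 10.9, 7.32 and 19.8 in RC embryos, against 1.94, 1.84 and 2.84 in AC embryos, a log2 fold change of 2.0 ± 0.63 (SE, adjusted p = 0.027), and this call was not made upon removal of AC replicate 2 or of RC replicate 1 or 3 (adjusted p = 0.061 to 0.15).

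In the rising set the differences at equal somite number after 15ss went in both directions around a median near 0. Its geometric mean at 4ss was 7.40 and 5.61 normalized counts in RC embryos, against 19.8, 15.9 and 22.8 in AC embryos, and at 15ss it was 28.8, 26.6 and 20.9 in RC embryos, against 7.73, 8.93 and 10.9 in AC embryos. These 2 stages chose the genes. At 30ss the values were 75.9, 78.6 and 65.6 in RC embryos and 64.2, 65.4 and 79.0 in AC embryos. The median log2 fold change of the 36 genes was 0.32 at 10ss and between -0.11 and 0.08 at the 5 later stages. The genes spread more widely than the ranked genes as a whole, and they also varied more between embryos of a group. Their SD of log2 values within a group, averaged over groups, had a median of 0.59, against 0.27 over all genes tested. Its part in the wider spread of the differences was not tested. The quartiles of the difference in log2(group mean + 1) were -0.63 and 0.55 at 22ss and -0.57 and 0.69 at 26ss, against -0.30 and 0.22 and -0.26 and 0.23 over all ranked genes. With RC embryos set against AC embryos of fewer somites the median was 0.43 for RC 22ss and AC 18ss, 1.19 for RC 26ss and AC 20ss, 0.69 for RC 30ss and AC 22ss, and 0.02 for RC 37ss and AC 30ss. The 28 falling genes had medians between 0.32 and 0.50 at equal somite number, and of -0.30, -0.30, -0.20 and 0.20 in these 4 pairs. The sets were made from levels in these same embryos and named after their course with stage. In pairs with more somites in RC, a higher median of rising and a lower median of falling genes thus partly restate the sets. The comparisons also share embryos, so these medians are set side by side and not tested against each other.

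**Figure D3:**
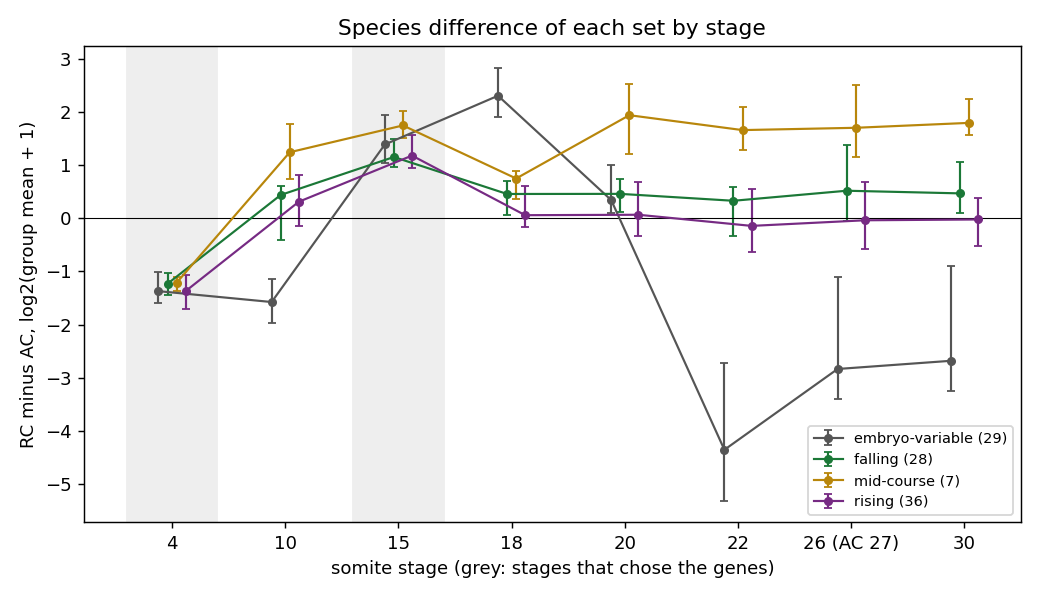
Median species difference of each set, RC minus AC in log2(group mean + 1), by somite stage, with bars from the lower to the upper quartile of the genes and grey bands at 4 and 15ss, the stages that chose the genes. The embryo-variable set lies at 2.31 at 18ss and at -4.36 at 22ss, the mid-course set stays above 0 from 10ss, the falling set stays between 0.33 and 1.16 from 10ss, and the median of the rising set lies near 0 from 18ss with quartiles on both sides.

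ENSACLG00000024004 of the rising set is annotated to ATP metabolic process and carbohydrate catabolic process. At 4ss ENSACLG00000024004 had 169.5 and 89.0 normalized counts in RC embryos, against 342, 159.7 and 294 in AC embryos, and at 15ss it had 145, 153 and 169 in RC embryos, against 80.6, 94.7 and 72.3 in AC embryos. At 18ss the order had turned again, with 117, 175 and 144 in RC embryos, against 465, 405 and 213 in AC embryos and a log2 fold change of -1.25 ± 0.38 (SE, adjusted p = 0.012), a call that was not made upon removal of AC replicate 1 or of RC replicate 1 (adjusted p = 0.056 to 0.083). At 20ss it had 222, 124 and 223 in RC embryos, against 747, 330 and 254 in AC embryos, and was called lower in RC. This call was not made upon removal of AC replicate 1 or of RC replicate 2 or 3. At 30ss it had 5849, 5116 and 4953 in RC embryos, against 7172, 15980.1 and 8228 in AC embryos, a difference of -0.89 ± 0.38 (SE, adjusted p = 0.12). Between 18ss and 30ss it rose by 5.20 ± 0.37 log2 in RC and 4.84 ± 0.37 in AC (SE, adjusted p = 9.3e-13 and 3.3e-12 by limma). RC 26ss embryos were higher than AC 20ss embryos, at 2.7 ± 0.37 (SE, adjusted p = 9.6e-07), and RC 30ss embryos were called higher than AC 22ss embryos. RC 37ss and AC 30ss embryos differed by -0.06 ± 0.37 (SE, adjusted p = 0.97). ENSACLG00000016598 is annotated to hindbrain, gland and sensory organ formation. It had 15.5 and 15.9 normalized counts in RC embryos, against 38.6, 19.5 and 35.6 in AC embryos at 4ss, and 79.8, 104.7 and 99.1 in RC embryos, against 38.7, 57.1 and 46.8 in AC embryos at 15ss. Between 10ss and 18ss it rose by 1.31 ± 0.28 log2 in RC and 1.40 ± 0.28 in AC (SE, adjusted p = 0.0028 and 0.00023), and the RC call was not made upon removal of RC replicate 2 (adjusted p = 0.35). It passed in none of the 6 species comparisons, where it lay between -0.63 ± 0.27 and 0.10 ± 0.27 (SE, adjusted p = 0.12 and 0.87).

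The gene at rank 1, ENSACLG00000016694, has no annotation here. It was listed at 0 in both RC embryos at 4ss, against 10.4, 7.79 and 0 normalized counts in AC embryos. At 15ss it had 562, 568 and 82.4 in RC embryos, against 17.8, 53.8 and 95.7 in AC embryos. At 18ss it had 3225, 1283 and 1474 in RC embryos, against 60.6, 105.1 and 91.9 in AC embryos, a log2 fold change of 4.43 ± 1.32 (SE, adjusted p = 0.0099) that held with any 1 replicate number of a species left out. At 10ss it had 1187, 6.68 and 378 in RC embryos, against 45.0, 0 and 3.01 in AC embryos, so that 2 RC embryos were far above the rest and 1 was not. ENSACLG00000016965 had 19.4, 10.5 and 6.47 normalized counts in RC embryos, against 0, 3.22 and 2.01 in AC embryos at 10ss, and 102, 95.2 and 80.3 in RC embryos, against 21.3, 8.29 and 20.8 in AC embryos at 30ss. It was higher in RC at 10, 20, 26 and 30ss, with log2 fold changes between 1.55 ± 0.50 and 2.49 ± 0.50 (SE, adjusted p = 0.030 and 0.00053 by limma), and in all 4 comparisons at equal parts of somitogenesis. Its call at 10ss was lost without the 4 embryos that stood apart (1.38, adjusted p = 0.080), that at 20ss upon removal of AC replicate 2 or 3 or of RC replicate 2 or 3 (adjusted p = 0.061 to 0.11) and that at 26ss upon removal of AC replicate 3 or of RC replicate 2 or 3 (adjusted p = 0.069 to 0.096).

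ENSACLG00000018315 was higher in RC at 15 and 18ss and lower in RC at 30ss. At 4ss it had 3.32 and 3.52 normalized counts in RC embryos, against 15.08, 2.60 and 6.14 in AC embryos. The groups overlapped there at few counts, and 1 AC embryo gave most of the difference. At 15ss ENSACLG00000018315 had 99.98, 111 and 83.5 normalized counts in RC embryos, against 14.7, 28.0 and 26.6 in AC embryos. At 18ss it had 97.1, 70.0 and 87.3 in RC embryos, against 34.9, 31.5 and 34.7 in AC embryos, a log2 fold change of 1.29 ± 0.49 (SE, adjusted p = 0.043), a call that was not made upon removal of AC replicate 2 or 3 or of RC replicate 1 or 3 (adjusted p = 0.079 to 0.19). At 30ss it had 446, 830.4 and 407 in RC embryos, against 2536, 4909 and 4361 in AC embryos, a log2 fold change of -2.83 ± 0.49 (SE, adjusted p = 7.2e-05) that held with any 1 replicate number of a species left out. By 37ss RC embryos had 1677, 4929 and 4950.3 normalized counts, a difference of -0.14 ± 0.51 (SE, adjusted p = 0.94) from AC 30ss embryos. ENSACLG00000004216 had few counts, with 1.11 and 0 in RC embryos, against 45.2, 19.5 and 27.0 in AC embryos at 4ss and 8.08, 2.11 and 1.04 in RC embryos, against 3.14, 0 and 0 in AC embryos at 15ss. One RC embryo gave most of the difference at 15ss. At 18ss it had 0, 2.92 and 4.55 in RC embryos, against 11.9, 14.0 and 14.3 in AC embryos and was lower in RC, at -2.37 ± 0.53 (SE, adjusted p = 0.00087).

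**Figure D4:**
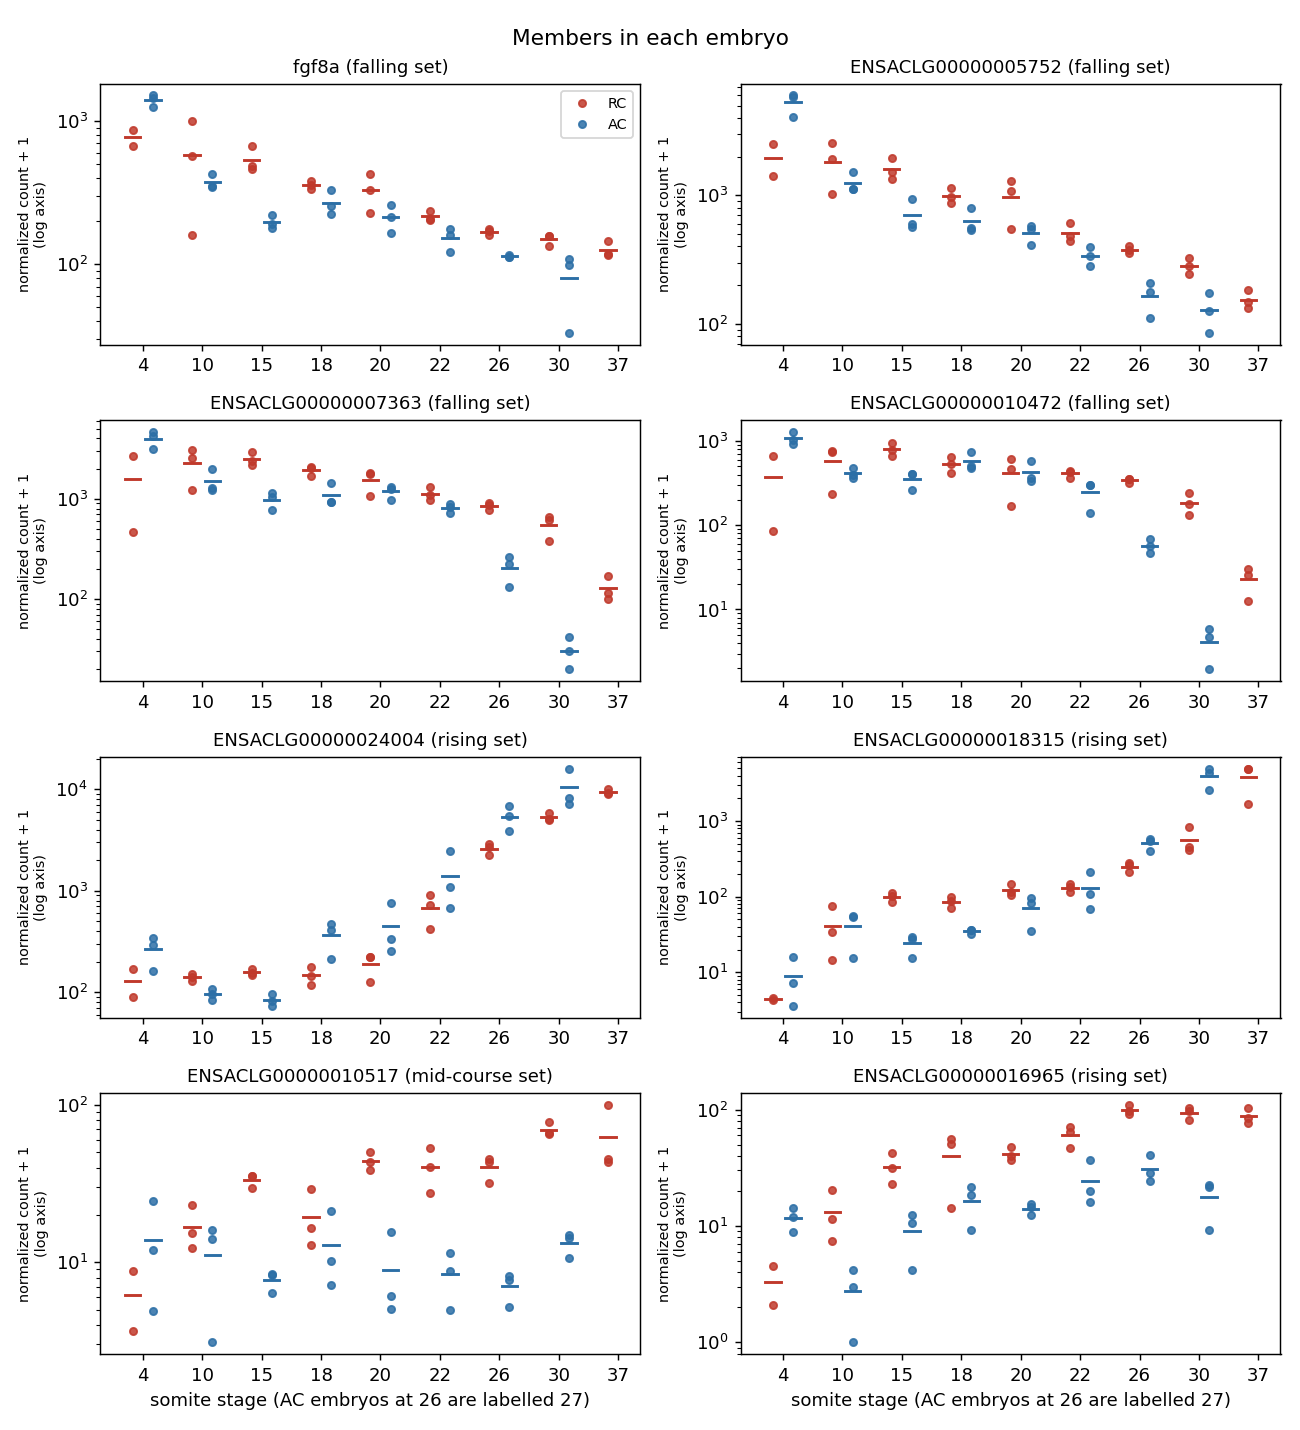
Normalized count plus 1 on a log axis in each embryo by somite stage, with RC (red) left of AC (blue) and a bar at the group mean, for 8 members. fgf8a and ENSACLG00000005752 decline in both species with RC above AC at 22, 26 and 30ss, ENSACLG00000007363 and ENSACLG00000010472 part at 26 and 30ss, ENSACLG00000024004 and ENSACLG00000018315 climb, and ENSACLG00000010517 and ENSACLG00000016965 have higher means in RC from 10ss on.

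The species comparisons at the 6 stages that did not enter the choice were then counted over all members. A call required an adjusted p under 0.05 by limma, adjusted over all genes tested by Benjamini-Hochberg, and a change of more than 1.5-fold on the log2(normalized count + 1) scale, which understates the change of genes with few counts. All 100 members passed the filter on low values. The shares of all genes given below are those of the fit with all embryos, and none were computed by direction for other fits. At 10ss 9 members were higher in RC, against 6.86% of all genes tested, and 1 was lower, against 7.24%. At 18ss 9 were higher, against 10.3%, and 3 lower, against 10.5%. At 20ss 9 were higher, against 5.24%, and 1 lower, against 6.68%. In the count of higher genes the members were thus near the background at 10 and 18ss. At 20ss they were above it, with a count that fell to 4 without RC replicate 2. In the count of lower genes they were below the background at these stages. At 22ss 5 were higher, against 4.84%, and 16 lower, against 5.97%. At 26ss 12 were higher, against 5.11%, and 3 lower, against 4.82%. At 30ss 13 were higher, against 5.33%, and 2 lower, against 5.11%. The median log2 fold change of the members was 0.07, 0.68, 0.39, -0.25, -0.10 and 0.09 at these stages, and that of all genes lay between -0.02 and -0.01.

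The sets contributed unequally to these counts. They were made from levels in these same embryos, so the split of the counts by set partly restates how they were made and is a description. All 16 members lower at 22ss belonged to the embryo-variable set, as did 6 of the 9 higher at 18ss. Leaving out 1 replicate number of 1 species moved the 16 to between 0, without RC replicate 3, and 23, without AC replicate 2, with 2 left without AC replicate 1, 3 without RC replicate 1 and 5 without AC replicate 3. The 9 higher at 18ss became 19 without AC replicate 1, 3 without AC replicate 2, 4 without RC replicate 1 and 5 without RC replicate 3. Without the 4 embryos that stood apart, 1 of which is the low AC embryo at 22ss, these counts were 27 and 25, and the members lower at 26 and 30ss were 22 and 12. Each of these 4 embryos was the highest or lowest of its group in the embryo-variable set, so leaving them out narrowed the spread of that set. No share of all genes was computed for this fit, and nothing is read from its counts. The falling set held 7 of the 12 members higher at 26ss and 7 of the 13 at 30ss, and the mid-course set 4 and 5. The 12 became 7 without RC replicate 2, the 13 became 8 without AC replicate 3, and without the 4 embryos they were 13 and 15. At 10ss the 9 higher were 14 without RC replicate 1, and at 20ss they were 4 without RC replicate 2 and 5 without AC replicate 2. Counts of 5 or fewer lay between 0 and 6 in the fits with a replicate number left out.

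In all, 50 members were called in at least 1 of the 6 comparisons, against 35.0% of all genes tested, 31 of them higher and 23 lower in RC at some stage. By set, a description as above, these were 20 of 29 embryo-variable, 13 of 28 falling, 7 of 7 mid-course and 10 of 36 rising genes. A single stage accounted for 28 of the 50, while 7 were called at 3 or more stages and 4 in both directions. The shares of all genes for the splits by direction and number of stages were not computed, so nothing is read from these splits. Nor were shares computed for the fits with embryos left out that follow. The total was 26 without RC replicate 3, 29 without RC replicate 1 and 61 without the 4 embryos that stood apart.

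**Figure D5:**
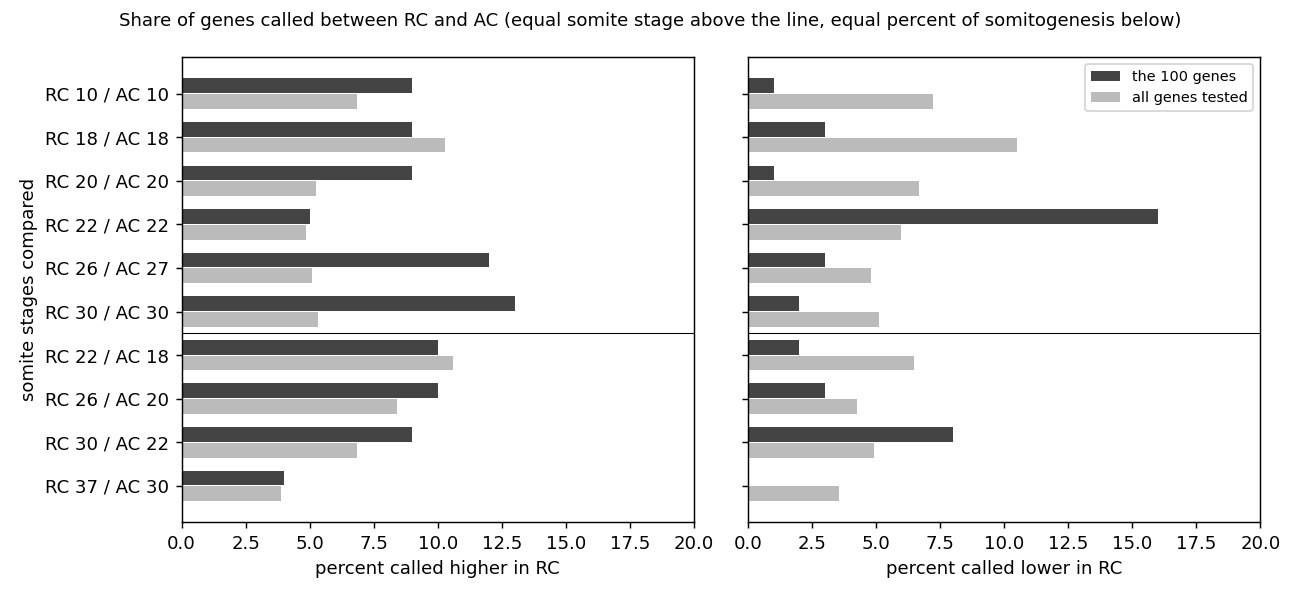
Percent of the 100 members (dark) and of all genes tested (light) called higher in RC (left) and lower in RC (right) in the 6 comparisons at equal somite stage and the 4 at equal percent of somitogenesis. The members stand at 16% lower in RC at 22ss beside 5.97% of all genes, and at 13% higher in RC at 30ss beside 5.33%.

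Whether the species difference of a member varied over the 6 stages was asked with limma's F-test. It passed for 6 members, against 2.06% of all genes, and 38 members had an unadjusted p under 0.05, against 17.9%. The 6 were ENSACLG00000010472 (adjusted p = 4.2e-06), ENSACLG00000007363 (3.7e-05), ENSACLG00000013111 (0.0011), ENSACLG00000021740 (0.0027), ENSACLG00000018315 (0.0029) and ENSACLG00000012932 (0.027). ENSACLG00000021740 is outside the rule for named genes and is given to complete the count. The count was 4 without AC replicate 3 or without RC replicate 1, 10 without AC replicate 1, 14 in a fit without the 4ss and 15ss embryos and 30 without the 4 embryos that stood apart. No share of all genes was computed for these other fits. ENSACLG00000013111, of the rising set, had 48.1, 73.5 and 64.7 normalized counts in RC embryos, against 4.19, 7.52 and 0 in AC embryos at 10ss, a log2 fold change of 4.14 ± 0.59 (SE, adjusted p = 2.0e-06). At 18ss it had 25.7, 14.6 and 4.55 in RC embryos, against 29.4, 21.0 and 25.5 in AC embryos, a difference of -0.98 ± 0.59 (SE, adjusted p = 0.21).

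The species were then compared in the 4 pairs of stages at equal parts of somitogenesis. With RC 22ss against AC 18ss 10 were higher, against 10.6% of all genes, and 2 lower, against 6.5%. With RC 26ss against AC 20ss 10 were higher, against 8.41%, and 3 lower, against 4.27%. With RC 30ss against AC 22ss 9 were higher, against 6.83%, and 8 lower, against 4.91%. With RC 37ss against AC 30ss 4 were higher, against 3.89%, and 0 lower, against 3.57%, where limma gave 2 with an unadjusted p under 0.05 and edgeR and DESeq2 called 1 each. The split by set again partly restates how the sets were made. The rising set held 6, 9 and 8 of the members higher in the first 3 pairs, and the embryo-variable set all 8 lower in the third. These 8 were 2 without AC replicate 1 or RC replicate 3, 3 without AC replicate 3, 4 without RC replicate 2, 5 without RC replicate 1, 19 without AC replicate 2 and 24 without the 4 embryos that stood apart. The 10 higher with RC 22ss were 6 without RC replicate 2, and the 10 higher with RC 26ss were 17 without the 4 embryos. In all 31 members passed in at least 1 of the 4 pairs, against 26.2% of all genes. The count was 50 with DESeq2 and 47 without the 4 embryos, fits for which no share of all genes was computed here. The total of 31 is not comparable with the 50 over 6 stages, since the number of comparisons differs. The pairs that contain 15ss embryos were not tested. Their median differences over the members were 0.27 for RC 15ss and AC 10ss, with 56 of 100 genes higher in RC, and 1.21 for RC 18ss and AC 15ss, with 96 of 100 higher. Over all ranked genes the medians were 0.0076 and 0.022, with 9799 and 10075 of 19316 genes higher in RC. Since values at 15ss chose the genes, these counts partly restate the choice and nothing is read from them.

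Most members changed with stage within a species. In RC 8 members rose between 10ss and 18ss, against 5.12% of all genes, and 6 fell, against 0.415%. In AC 14 rose over the same stages, against 12.8%, and 25 fell, against 6.94%. Between 18ss and 30ss 16 rose in RC, against 13.9%, and 14 fell, against 2.79%. In AC 29 rose, against 16.1%, and 14 fell, against 5.08%. Between 30ss and 37ss 1 rose in RC, against 0.16%, and 4 fell, against 0.146%. In all 72 members passed in at least 1 stage comparison, against 38.4% of all genes. Here too the split by set partly restates how the sets were made. Of the 25 that fell in AC between 10ss and 18ss, 15 were embryo-variable and 10 falling genes. Of the 29 that rose in AC between 18ss and 30ss, 13 were embryo-variable and 16 rising genes. The 25 were 11 without AC replicate 1 and 13 without AC replicate 2, and the 29 were 10 without AC replicate 2. The RC counts of 8 and 6 between 10ss and 18ss were both 0 without RC replicate 2, both 2 without RC replicate 3, both 10 without RC replicate 1, and 14 and 12 without the 4 embryos. The 16 that rose in RC between 18ss and 30ss were 8 without RC replicate 1, and the 14 that fell were 24 without the 4 embryos.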

How the data were processed

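Per the labels and the study's methods, RNA reads of single embryos were trimmed with Trim Galore and aligned by STAR, for RC as for AC, to the assembly of A. calliptera. The authors summed reads with 1 alignment over each gene, scaled the sums with size factors from DESeq2 and deposited these normalized counts, a signal per gene without correction for gene length. Reads of RC were thus counted on the genome of the other species, and the effect of that on species differences was not tested. The values above 0 were whole multiples of 1 step per embryo (100.0% of 1108408 values, tolerance 0.01), so whole reads were recovered for count tests. The authors' 17 columns of group means and the tables of transposable elements and long non-coding RNAs were not used. The study's supplementary tables gave symbols for 220 of 28001 identifiers and enriched Gene Ontology terms. Their columns of fold changes and p-values were not used, and none of the identifiers matched the RefSeq table.

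Genes with at least 10 normalized counts in 2 embryos were tested with limma 3.58.1 (R 4.3.3, trend) on log2(normalized count + 1), 1 mean per group, with 47 embryos for comparisons at equal stage and for the F-test and 50 embryos for the others, and Benjamini-Hochberg adjustment within each comparison. The fit was tested on simulated data. In at least 1 of the 6 species comparisons limma called 7428 genes, edgeR 4.0.16 (quasi-likelihood, recovered reads) 7273 and DESeq2 1.42.0 7766. Alternatives were other pseudocounts, filters, scaling, thresholds, embryos and tools. Named genes are members with a symbol or term, members of a gene list and the genes next to the last rank. In each comparison, up to 2 called members per direction with the smallest adjusted p were taken as named genes as well. Only a part of these is described above. Members and lists were chosen with earlier results of these data known.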

Additional observations from a re-analysis of the deposited data

Results flagged for a closer look

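For 5 named members the species difference, RC minus AC, varied over the 6 stages that did not enter the choice (limma's F-test). ENSACLG00000010472 (adjusted p = 4.24e-06) and ENSACLG00000007363 (adjusted p = 3.74e-05), both falling genes, were higher in RC at 26 and 30ss, with log2 fold changes of 5.58 and 4.2 at 30ss. ENSACLG00000013111 (adjusted p = 0.00107), a rising gene, was higher in RC at 10ss at 4.14, with all 3 RC embryos above all AC embryos. ENSACLG00000018315 (adjusted p = 0.00286), a rising gene, differed by 1.29 at 18ss and -2.83 at 30ss, and no embryos overlapped between the species at either stage. ENSACLG00000012932 (adjusted p = 0.0266), an embryo-variable gene, differed by 4.83 at 18ss and -4.66 at 22ss, where its levels within AC spread widely.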

How the results depend on the processing

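Of the totals, the 50 members called in at least 1 species comparison lay between 26 and 50 with 1 replicate number of a species left out, the 31 called at equal parts of somitogenesis between 22 and 38, the 72 called between stages between 54 and 66 and the 6 of the F-test between 4 and 10. The 31 became 50 with DESeq2, 47 with each comparison fitted alone and 47 without the 4 embryos that stood apart, a set chosen after seeing the data. The 6 became 10 with quantile normalization, 14 without the 4ss and 15ss embryos and 30 without the 4 embryos. Of the 100 members, 60 were chosen again from group medians, 65 with a pseudocount of 10, 64 with quantile normalization and 51 to 87 with a replicate number left out. No share of all genes was computed for the fits with embryos left out, and the cause of these shifts was not tested. Over all alternatives, 423 counts of called members stayed within 1.5 times and 117 did not, while 927 values of named genes kept direction and side of the threshold, 63 kept direction only and 0 reversed. Limma, edgeR and DESeq2 called 50, 53 and 61 members in the species comparisons. Replicate numbers did not pair the embryos: of 23 RC and AC pairs of 1 stage and number, 4 had deviations correlated above 0.1 (range -0.087 to 0.37, median 0.0048). With the replicate number as a block the 4 totals were 52, 33, 72 and 9. Groups of 2 or 3 embryos from 1 clutch limit the precision.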

Other observations

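Outside the 100 members, 28 of 21112 genes tested followed the embryo-variable set over the 50 embryos with a Pearson correlation above 0.9. This is a description across embryos that share stage, species and library, with no test. Among the 28 were ENSACLG00000025100 (0.95) and ENSACLG00000025091 (0.92), both annotated to gluconeogenesis, ENSACLG00000020626 (0.95), annotated to lipid metabolic process, and ENSACLG00000002031 (gch2, 0.94), a GTP cyclohydrolase of pteridine synthesis. They were picked for their annotation after the values were seen.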
